A study of Mus musculus with 6 samples.

Results

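The stretch of mouse chromosome 17 from chr17:14709066-22456689 (GRCm38) holds a cluster of genes for zinc-finger proteins of the KRAB type, and its transcripts were compared between B16-BL6 melanoma cells lacking the interferon-gamma receptor chain IFNγR1 (IFNγR1KO) and scrambled control cells. The window was selected on measured values of this same comparison, because the Zfp genes in it had been seen to lie higher in IFNγR1KO cells, so the fold changes and calls of its genes are given as a description and support nothing. Its members were all genes lying wholly inside the window in GENCODE M21 with 10 or more counts in at least 3 of the 6 libraries. These were 50 of the 13733 genes that passed this filter genome-wide, and 20 of the 50 carried a symbol of Zfp and a number.

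The data were bulk poly(A) RNA-seq counts from 6 libraries. B16-BL6, a mouse melanoma line, had been transduced with lentiCRISPR v2 carrying either a scrambled guide directed at GFP or a guide against Ifngr1, selected with puromycin and grown from single cells, so each line is a clone. The 3 scrambled control libraries (replicates 1, 2 and 3, whose genotype the labels give as WT) and the 3 IFNγR1KO libraries (replicates 10, 11 and 12) came from cells seeded overnight in triplicate, with no interferon treatment described. The sources used here do not say whether replicates 10 to 12 came from different clones, so p-values measure the spread between these cultures, and the effect of the knockout cannot be told apart from differences between clones.

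KRAB zinc-finger proteins bind DNA through tandem arrays of C2H2 fingers and recruit TRIM28 (KAP1) through their KRAB domain. TRIM28 brings in the histone methyltransferase SETDB1 and HP1 proteins, which place and read H3K9me3, and the best known targets are transposable elements. The genes lie in tandem clusters that grew by duplication, and many are transcribed at low levels.

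Ifngr1 itself, the edited gene, had 154, 144 and 172 counts in control replicates 1, 2 and 3 and 80, 85 and 82 counts in IFNγR1KO replicates 10, 11 and 12. That was 15.9 ± 1.35 CPM, the count relative to the library total scaled by TMM factors (SD, n = 3), against 11.5 ± 0.0871 CPM, a log2 fold change of -0.47 ± 0.16 (SE) with an adjusted p of 0.0743 in the quasi-likelihood test of edgeR, adjusted by the method of Benjamini and Hochberg. The exact two-sided permutation p was 0.1, the smallest that 3 libraries against 3 can give. Small insertions and deletions made by Cas9 need not lower the count of a transcript, so this value does not check the labels. Gene-assigned totals ran from 9402640 to 10579788 counts in the controls and from 6698956 to 7409479 in IFNγR1KO, so depth differed with the group. All 7 melanocyte markers examined passed the filter. For the marker sums alone, CPM is relative to the gene-assigned total without TMM factors. The melanocyte markers summed to 32189 to 33345 CPM in controls and 29624 to 32443 CPM in IFNγR1KO. The 5 fibroblast markers, of which 3 passed the filter and Lum was at 0, summed to 56.1 to 73.9 CPM and 127 to 142 CPM. For depth, a fit with all libraries thinned to the smallest total is reported at the end. The part of the other differences in the values below was not tested.

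The annotation placed 203 genes in the window, and 201 of them were in the count tables. No read was assigned to 118 of these. Among the silent ones were 58 of the 60 vomeronasal receptor genes, pseudogenes included, and all 8 formyl peptide receptor genes. Of these receptor genes, 53 filled a stretch of 3.03 Mb with no member, which split the window into a proximal and a distal part. The distal part carried 18 of the 20 Zfp members and the proximal part carried Zfp960 and Zfp97. The 30 other members comprised 15 protein-coding genes and 15 non-coding genes or pseudogenes. One of the protein-coding genes, CT030661.1 (RefSeq Gm7072), has no Zfp symbol but encodes 18 C2H2 fingers.

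The 20 Zfp members and CT030661.1 encode proteins of 437 to 781 residues with 9 to 19 fingers (median 13), counted in translated GENCODE coding sequences. A KRAB A-box pattern was found in 17 of these 21 proteins. It was not found in Zfp960, Zfp97, Zfp51 or Zfp53, which says only that the pattern searched is not in the translated sequence. Over the 210 pairs of proteins, identity over aligned residues had a median of 54.3% and ran from 39.4% to 96.3%. The closest pair was Zfp960 and Zfp97 (96.3%), neighbours in the proximal part. In the distal part Zfp995 and Zfp947 were 90.4% identical and Zfp994 and CT030661.1 were 88.6% identical. Such kinship bears on the counting, since reads that fit more than 1 place are dropped by default. Of the 75-base windows in the transcripts of Zfp960 and Zfp97, 75.3% and 74.0% also occur in transcripts of another gene, so the counts of these 2 genes are uncertain. Among the other 18 Zfp members the share was at most 9.75%, in Zfp994, and for CT030661.1 it was 13.1%.

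Promoters from RefSeq (GRCm38.p6), 250 bases before to 50 bases after the start site, could be placed within 1000 bases of the annotated start for 31 members, 17 of them Zfp genes. The E-box CACGTG, which reads the same on both strands, was in 7 of the 17 Zfp promoters (41.2%) and in the promoter of CT030661.1, against 7.2% of 27025 RefSeq promoters and 5.7% of the 318 promoters of Zfp genes elsewhere. All 8 lay next to each other at the distal end, from Zfp942 to Zfp946. They are not independent, since neighbours arose by duplication and 4 of the genes start in opposite directions from 2 shared gaps. Those 2 gaps and the upstream stretches of CT030661.1 and Zfp947 are shown because they carry this shared element, and that of Zfp994 for its likeness to CT030661.1. They are read 5′ to 3′, the gaps on the plus strand and the 150 bases upstream of each RefSeq start on the gene's own minus strand. Capitals mark the E-box, the GC box GGGCGG and the CCAAT box CCAAT, the last 2 on either strand.
Zfp942 and Zfp943, chr17:21962465-21962551: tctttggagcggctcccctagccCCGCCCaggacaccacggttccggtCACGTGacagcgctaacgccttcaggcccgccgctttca
Zfp944 and Zfp758, chr17:22361401-22361452: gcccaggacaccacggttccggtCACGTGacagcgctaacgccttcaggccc
Zfp994, chr17:22225615-22225764: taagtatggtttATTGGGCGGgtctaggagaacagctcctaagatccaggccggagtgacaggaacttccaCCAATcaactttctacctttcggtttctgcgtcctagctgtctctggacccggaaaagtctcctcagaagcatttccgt
CT030661.1, chr17:22314843-22314992: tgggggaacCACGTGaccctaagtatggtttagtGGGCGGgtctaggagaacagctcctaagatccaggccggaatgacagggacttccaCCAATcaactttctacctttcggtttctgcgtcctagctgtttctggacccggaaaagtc
Zfp947, chr17:22165978-22166127: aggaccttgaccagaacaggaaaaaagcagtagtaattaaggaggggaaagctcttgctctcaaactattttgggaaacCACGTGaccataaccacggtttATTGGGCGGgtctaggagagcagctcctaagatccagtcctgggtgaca

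All 52 bases between the starts of Zfp944 and Zfp758 occur unchanged within the 87 bases between Zfp942 and Zfp943. Upstream of Zfp994 and CT030661.1, 127 of 131 aligned bases were identical (96.9%). The E-box of Zfp994 lies outside the 150 bases shown. Where a CCAAT box and a GC box overlap, as upstream of Zfp947 and Zfp994, both are in capitals. A GC box was in 8 of the 14 promoters placed for other members of the window (57.1%). Among the 17 Zfp promoters it was in 12 (70.6%), against 42.1% of the promoters of Zfp genes elsewhere and 35.9% of all promoters. A CCAAT box was in 8 (47.1%, against 49.7% and 37.9%) and the ETS site CCGGAAG in 4 (23.5%, against 21.7% and 9.1%), shares close to those of Zfp genes elsewhere. Searches on both strands for the YY1 pattern AAGATGGCG, held by 1.5% of all promoters, found it in none of the 17 windows. The same was true of the NRF1 pattern GCGCATGCG (1.8%). Nor was the cyclic AMP response element TGACGTCA (1.9%) in any of them. The ATF4 pattern TTGCATCA (0.9%) was in none, and neither was the TATA box TATAAA (14.2%). A match is a description of letters and not a binding site. The 8 genes with an E-box had log2 fold changes from 0.17 to 0.97. The Zfp members with a placed promoter and no E-box ran from -0.50 (Zfp52) to 0.77 (Zfp677). No promoter was placed for Zfp51, so it was not searched. Whether the E-box goes with the fold change was not tested.

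Of the 20 Zfp members, 2 were called higher in IFNγR1KO at an adjusted p under 0.05 and none was called lower by edgeR's quasi-likelihood test. Genome-wide, 7.59% of tested genes were called higher and 7.64% lower. At an unadjusted p under 0.05, 5 of the 20 passed. The share of all tested genes at that unadjusted threshold was not computed, so this count has no reference. The fitted log2 fold change was above 0 for 18 of the 20, with a median of 0.43 beside a median of -0.00047 over all tested genes. No Zfp member passed both an adjusted p under 0.05 and a log2 fold change above 1, which 3.12% of all tested genes did on the higher side. Every IFNγR1KO library lay above every control library for 3 Zfp members and below for 1, where 15.7% and 16.7% of all tested genes did so. For the other 16 the groups overlapped. Since the window was chosen on this contrast, nothing is read from these shares.

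**Figure D1:**
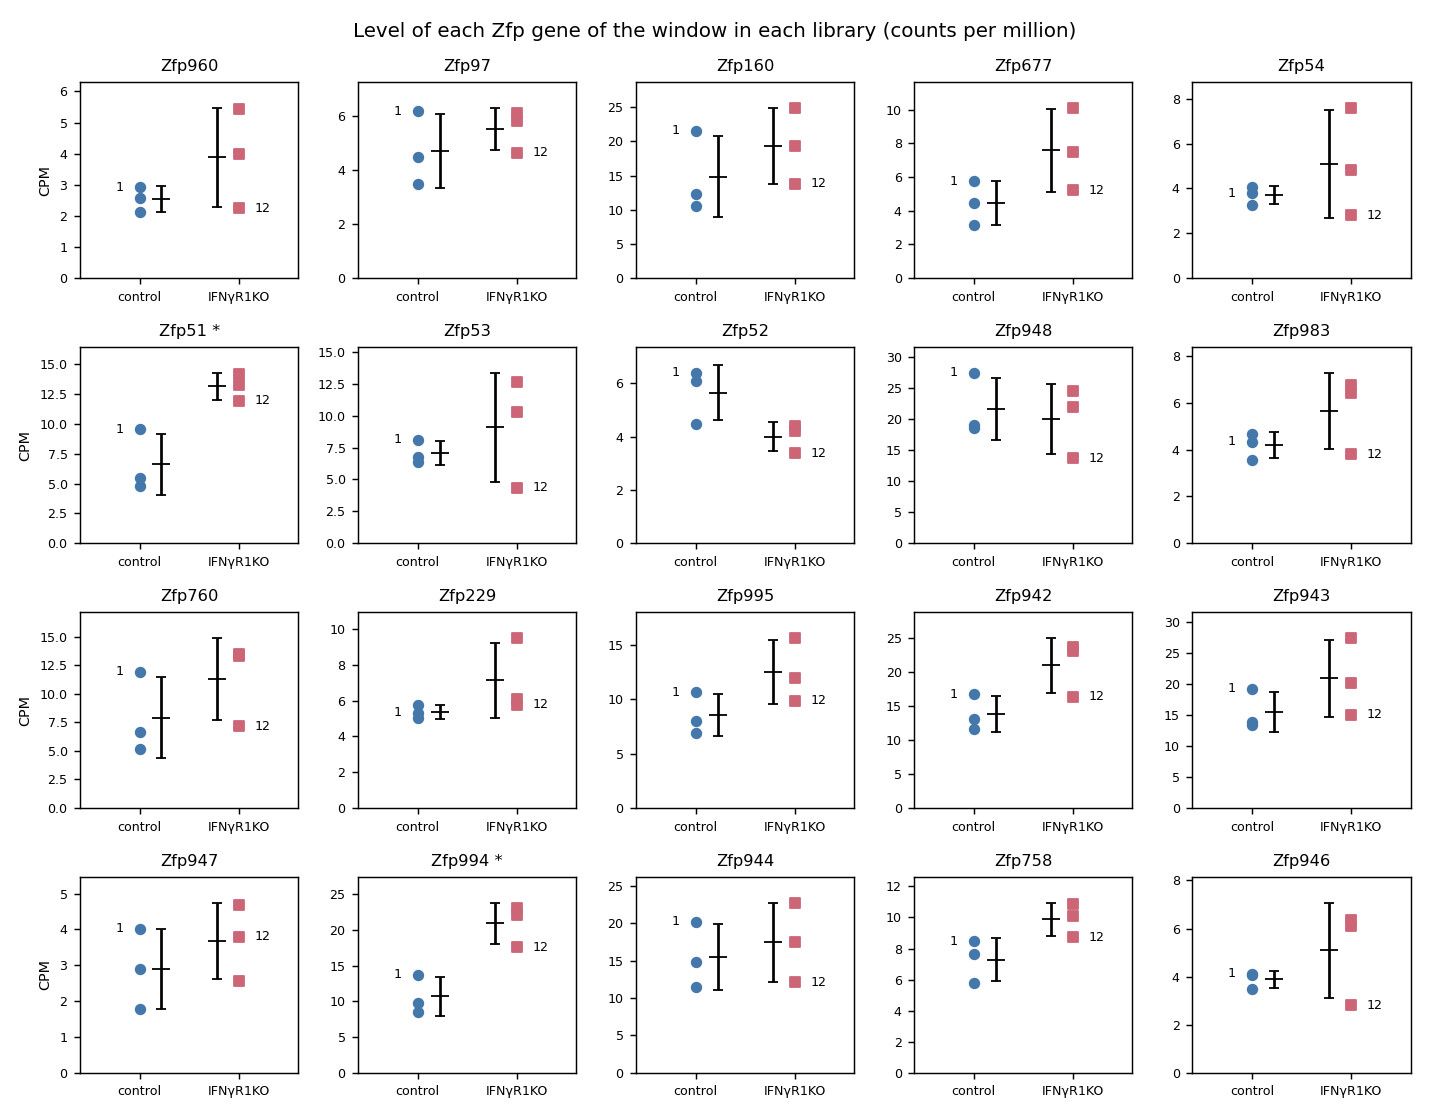
Level of each of the 20 Zfp members in CPM (y axis from 0), with control libraries as blue circles and IFNγR1KO libraries as red squares; crosses with bars are means ± SD (n = 3), control replicate 1 and IFNγR1KO replicate 12 are numbered, and an asterisk marks an adjusted p under 0.05. Replicate 12 is the lowest IFNγR1KO library in 19 of the 20 panels and control replicate 1 the highest control in 17.

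Zfp51 (chr17:21450374-21465587) and Zfp994 (chr17:22197265-22225616) were the 2 genes that rose. Zfp51 stood at 9.54, 4.77 and 5.50 CPM in control replicates 1 to 3 and at 14.2, 13.3 and 12.0 CPM in IFNγR1KO replicates 10 to 12. Control replicate 1 was the high one of its group, and still below every IFNγR1KO library. Its log2 fold change was 1.00 ± 0.25 (SE), with an adjusted p of 0.0175 (edgeR). Zfp994 stood at 13.8, 8.55 and 9.84 CPM in the controls and at 22.2, 23.0 and 17.6 CPM in IFNγR1KO. The groups did not overlap, and the log2 fold change was 0.97 ± 0.20 with an adjusted p of 0.00728 (edgeR). Zfp994 kept its call whichever library was left out. It did so narrowly without control replicate 2 (adjusted p = 0.0496) or without IFNγR1KO replicate 11 (0.0440, edgeR). Zfp51 lost its call without control replicate 2 (adjusted p = 0.0875), without IFNγR1KO replicate 10 (0.0609) or without replicate 11 (0.0648) in the same edgeR test.

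CT030661.1 (chr17:22285871-22314837), the relative of Zfp994 that lies next to it, also rose. It measured 25.3, 16.5 and 18.2 CPM in the controls and 40.8, 34.0 and 30.1 CPM in IFNγR1KO. All IFNγR1KO libraries lay above the controls, and the log2 fold change was 0.81 ± 0.19 with an adjusted p of 0.0124 (edgeR). This call was lost without control replicate 2 (adjusted p = 0.0738) or without IFNγR1KO replicate 10 (0.0614). With CT030661.1 counted among them, 3 of the 21 genes with 3 or more C2H2 fingers were called higher (14.3%, against 7.59% of all tested genes). Their median log2 fold change stayed at 0.43. Since the window was chosen on this contrast, nothing is read from that share.

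Zfp942 with Zfp943 and Zfp944 with Zfp758 are the pairs of Zfp genes that start head to head. Zfp942 measured 16.7, 11.6 and 13.0 CPM in controls and 23.0, 23.6 and 16.3 CPM in IFNγR1KO, and Zfp943, on the other side of the gap shown above, 19.2, 13.4 and 13.9 CPM against 27.4, 20.2 and 15.05 CPM. In both, IFNγR1KO replicate 12 fell among the controls while replicates 10 and 11 lay above them. Their log2 fold changes were 0.61 ± 0.20 and 0.43 ± 0.22, with adjusted p of 0.0560 and 0.227 (edgeR). Zfp944 measured 20.2, 14.8 and 11.5 CPM in controls and 22.8, 17.5 and 12.1 CPM in IFNγR1KO. Its partner Zfp758 measured 8.46, 5.77 and 7.62 CPM against 10.1, 10.8 and 8.72 CPM. Only Zfp758 of this pair had groups that did not overlap, and neither passed the test: the log2 fold changes were 0.17 ± 0.25 (adjusted p = 0.702) and 0.44 ± 0.21 (adjusted p = 0.181, edgeR). The sign of Zfp944 turned without control replicate 3 (-0.0026) or without IFNγR1KO replicate 10 (-0.062).

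Zfp995, Zfp947 and Zfp946 are the remaining Zfp members of the distal end. Zfp995 measured 10.63, 6.86 and 8.01 CPM in controls and 15.6, 11.9 and 9.84 CPM in IFNγR1KO, with a log2 fold change of 0.56 ± 0.23. Zfp947, at 4.01, 1.79 and 2.90 CPM against 4.69, 2.58 and 3.80 CPM, was the 1 member in which replicate 12 was not the lowest IFNγR1KO library. For Zfp946, the last gene of the window, values were 4.12, 3.48 and 4.05 CPM in controls and 6.11, 6.37 and 2.81 CPM in IFNγR1KO, so replicate 12 lay under all 3 controls. None of the 3 passed the test (adjusted p of 0.125, 0.551 and 0.432, edgeR), and their groups overlapped.

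Zfp160, Zfp677, Zfp53 and Zfp760 lie in the run from Zfp160 to Zfp229. Zfp160 measured 21.6, 12.3 and 10.5 CPM in controls and 24.9, 19.4 and 13.8 CPM in IFNγR1KO. Zfp760 measured 11.9, 5.17 and 6.66 CPM against 13.5, 13.3 and 7.17 CPM. In both, control replicate 1 and IFNγR1KO replicate 12 crossed over, and the log2 fold changes were 0.39 ± 0.27 and 0.52 ± 0.31. Zfp677 measured 5.75, 3.18 and 4.44 CPM in controls and 10.1, 7.45 and 5.20 CPM in IFNγR1KO, a log2 fold change of 0.77 ± 0.29 with an adjusted p of 0.0936 (edgeR). Zfp53 had tight controls at 8.13, 6.76 and 6.37 CPM and spread IFNγR1KO values of 12.7, 10.3 and 4.36 CPM, a log2 fold change of 0.36 ± 0.31. In these 4 genes replicate 12 was the lowest IFNγR1KO library each time.

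Zfp54, Zfp983 and Zfp229 were among the weakly transcribed members. Zfp54 measured 3.80, 4.08 and 3.28 CPM in controls and 4.83, 7.59 and 2.81 CPM in IFNγR1KO, and shares 7.42% of its exonic bases with the antisense gene Gm49691. Zfp983 measured 4.34, 4.67 and 3.57 CPM against 6.40, 6.78 and 3.80 CPM, and shares 5.35% of its exonic bases with CAAA01141682.1 on the same strand. Zfp229 measured 5.31, 5.77 and 5.02 CPM in controls and 9.53, 6.10 and 5.77 CPM in IFNγR1KO, with 1 library, replicate 10, well above the rest. Their log2 fold changes of 0.45 ± 0.32, 0.43 ± 0.27 and 0.41 ± 0.24 did not pass the test (adjusted p of 0.393, 0.315 and 0.296, edgeR).

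Zfp52 and Zfp948, neighbours in the middle of this run, were the 2 Zfp members with a log2 fold change below 0. Zfp52 measured 6.40, 4.48 and 6.08 CPM in controls and 4.41, 4.201 and 3.38 CPM in IFNγR1KO. Every IFNγR1KO library lay below every control, though the log2 fold change of -0.50 ± 0.25 did not pass (adjusted p = 0.205, edgeR). It shares 0.35% of its exonic bases with 9330136K24Rik on the other strand. Zfp948 measured 27.4, 18.5 and 19.01 CPM against 24.5, 21.96 and 13.6 CPM, with overlapping groups and a log2 fold change of -0.11 ± 0.23. Its sign turned without control replicate 1 (0.09) or without IFNγR1KO replicate 12 (0.10). Per kilobase of exon, Zfp948 had the highest level of all Zfp members in controls (8.16 ± 1.89 CPM per kb), and Zfp960 the lowest (0.955 ± 0.152 CPM per kb).

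The proximal pair was Zfp960 and Zfp97, 2 genes whose reads are hard to tell apart. Zfp960 measured 2.93, 2.59 and 2.12 CPM in controls and 3.98, 5.42 and 2.25 CPM in IFNγR1KO. Zfp97 measured 6.18, 4.48 and 3.47 CPM against 6.11, 5.83 and 4.64 CPM. Groups overlapped in both, and the log2 fold changes were 0.61 ± 0.33 and 0.24 ± 0.26 (adjusted p of 0.246 and 0.608, edgeR).

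Zfp820, the 1 Zfp gene of the window with counts too low for membership, stood apart from the members, and was singled out after its values were seen. It had 13, 7 and 4 counts in the controls and 0 in each IFNγR1KO library. A count of 0 allows up to 3 counts, or 0.41 to 0.43 CPM in these libraries, which the control level exceeded in replicates 1 and 2 (1.41 and 0.70 CPM) but not in replicate 3 (0.39 CPM). Without the filter on low counts it was the 1 Zfp gene of the window called lower (adjusted p = 0.000914, edgeR).

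The libraries of each group differed in all Zfp members together. Summed over the 20 genes, levels were 210, 143 and 147 CPM in control replicates 1 to 3 and 267, 238 and 165 CPM in IFNγR1KO replicates 10 to 12. The means were 167 ± 37.8 CPM and 223 ± 52.5 CPM (SD, n = 3), a ratio of 1.34, and the groups overlapped because replicate 12 lay below control replicate 1. Control replicate 1 was the highest control for 17 of the 20 genes, and IFNγR1KO replicate 12 the lowest IFNγR1KO library for 19. Without replicate 12, 9 Zfp members were called higher (the added ones were Zfp960, Zfp677, Zfp53, Zfp760, Zfp995, Zfp942 and Zfp943), while genome-wide 1360 genes were then called higher in place of 1043. The other 30 members summed to 1140, 1137 and 988 CPM in controls and 1270, 1225 and 1069 CPM in IFNγR1KO. The 305 Zfp genes outside the window summed to 5288, 4712 and 5111 CPM and 5580, 5605 and 5559 CPM, where replicate 12 did not stand apart in the sum. Gene by gene, control replicate 1 was the highest control for 159 of the 305. IFNγR1KO replicate 12 was the lowest IFNγR1KO library for 136 of them.

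**Figure D2:**
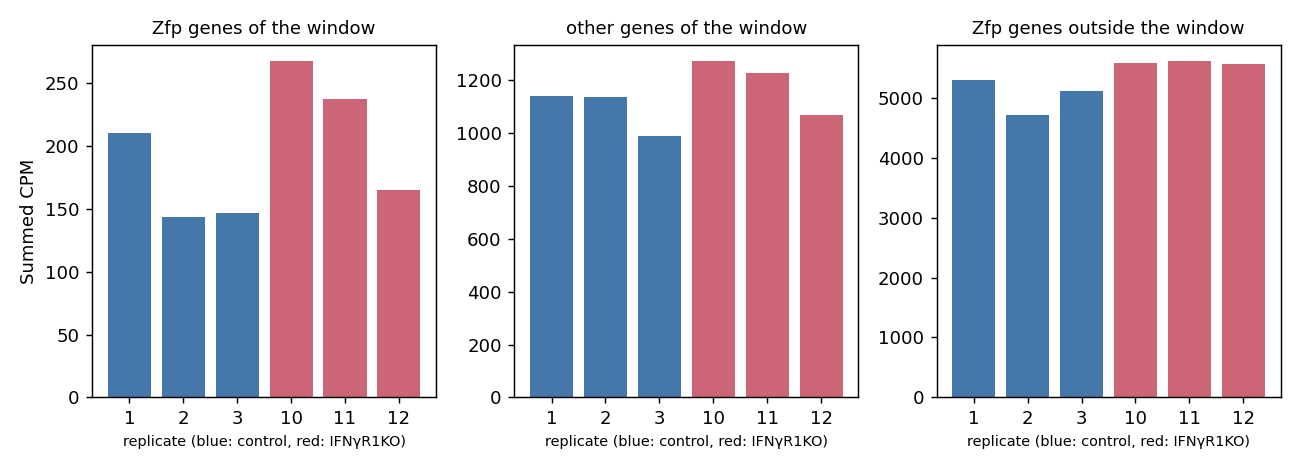
Summed level in CPM (y axes from 0) of the 20 Zfp members, the 30 other members and the 305 Zfp genes outside the window, 1 bar per library (blue, scrambled control; red, IFNγR1KO). In the first panel control replicate 1 (210 CPM) exceeds IFNγR1KO replicate 12 (165 CPM).

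Base composition moved with these library differences. The transcripts of the Zfp members had a median GC content of 38.4% (35.4% to 40.7%), against 49.8% over all tested genes. Across 13728 tested genes, which are not independent replicates, a gene's deviation from its group mean correlated with its GC content at r = -0.26 in control replicate 1, 0.21 in replicate 2 and 0.05 in replicate 3. In IFNγR1KO replicates 10, 11 and 12 the values were -0.18, -0.06 and 0.18. The libraries in which Zfp members ran high were thus those in which GC-poor genes ran high. The log2 fold change itself had r = -0.00050 with GC content. With each library's relation to GC content removed, an alternative added after these values were seen, the median over the Zfp members was 0.37 and 3 were called higher, Zfp942 (adjusted p = 0.0360, edgeR) beside Zfp51 and Zfp994. In that fit 1092 of 13728 genes were called higher genome-wide.

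Of the 30 other members, 6 were called higher and none lower (7.59% and 7.64% over all tested genes), with 10 of the 15 protein-coding genes and 10 of the 15 non-coding ones at values above 0. Median log2 fold changes were 0.19 over the 30, 0.48 over the protein-coding and 0.04 over the non-coding genes and pseudogenes. The median of 0.19 was -0.020 without control replicate 3, 0.42 without control replicate 1 and -0.043 without the members that share exonic bases with another gene. The 6 calls fell to 1 without IFNγR1KO replicate 10 or without members sharing exonic bases, and to 2 without control replicate 2 or IFNγR1KO replicate 11. Genome-wide, the 1043 genes called higher fell to 560, 535 and 563 without IFNγR1KO replicate 10, control replicate 2 and IFNγR1KO replicate 11. IFNγR1KO libraries lay above all controls in 9 of the 30 and below in 2, against 15.7% and 16.7% of all tested genes. The difference between Zfp and other members was not tested. Besides CT030661.1, the genes that rose were Phf10, 1600012H06Rik, Ermard and Fam120b near the proximal edge and Riok2.

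**Figure D3:**
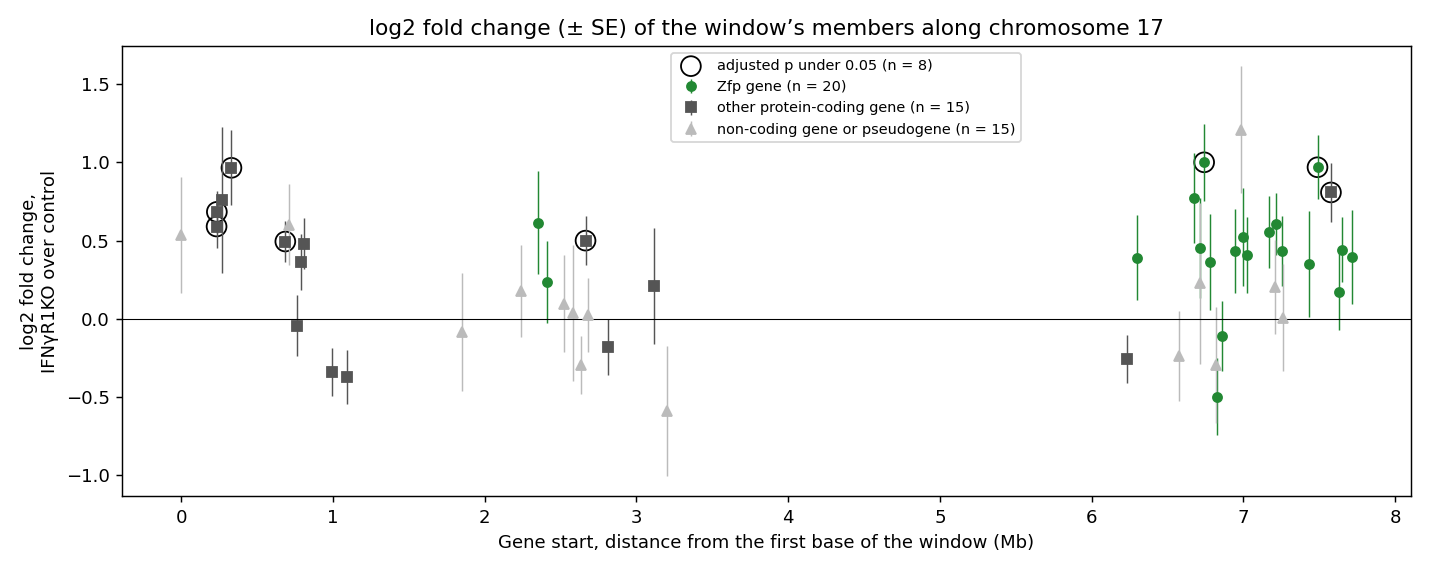
log2 fold change of IFNγR1KO over control (y axis, bars are SE) for the 50 members by distance of the gene start from the first base of the window in Mb (x axis); green circles are Zfp genes, dark squares other protein-coding genes, light triangles non-coding genes or pseudogenes, and open rings mark the 8 genes with an adjusted p under 0.05. Of the 20 green points 18 lie above 0, and the gap without members is filled by receptor genes.

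Phf10 (chr17:14945009-14961273), a subunit of the PBAF chromatin remodelling complex, measured 69.6, 65.5 and 63.7 CPM in controls and 119, 102 and 98.2 CPM in IFNγR1KO. Its log2 fold change was 0.68 ± 0.13 with an adjusted p of 0.00474 (edgeR), and the call held whichever library was left out. The uncharacterised 1600012H06Rik, which overlaps it on the other strand over 14.3% of its own exonic bases, measured 67.7, 67.9 and 56.9 CPM against 102, 102 and 85.2 CPM (log2 fold change 0.59 ± 0.14, adjusted p = 0.0140, edgeR). Whether counting used the strand is not given in the sources used here, so reads from such overlaps cannot be told apart. In both genes every IFNγR1KO library lay above every control. The call of 1600012H06Rik was lost without IFNγR1KO replicate 10 (adjusted p = 0.0651) or without replicate 11 (0.0755, edgeR).

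Ermard, whose product is an endoplasmic reticulum membrane protein, measured 5.42, 4.18 and 3.76 CPM in controls and 8.96, 10.3 and 6.75 CPM in IFNγR1KO. The log2 fold change was 0.96 ± 0.24 (adjusted p = 0.0175, edgeR), but 32.9% of its 75-base windows also occur elsewhere, mostly in 9030025P20Rik. Fam120b measured 28.4, 28.7 and 28.4 CPM against 39.8, 42.6 and 38.1 CPM, with very tight controls and a log2 fold change of 0.49 ± 0.13 (adjusted p = 0.0254, edgeR). Riok2 (chr17:17374309-17394899), an atypical kinase of small ribosomal subunit maturation, measured 50.002, 44.4 and 38.7 CPM against 65.3, 70.9 and 51.9 CPM, a log2 fold change of 0.50 ± 0.16 close to the threshold (adjusted p = 0.0489, edgeR). Ermard and Riok2 share exonic bases with genes on the other strand, 3.34% and 10.64%, and Fam120b 2.20%. Each of these 3 calls was lost when any of several single libraries was left out.

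Besides Phf10 and 1600012H06Rik, the most abundant of the other members were Psmb1, Tbp and Ppp2r1a, and none of these 3 was called. Psmb1, a proteasome core subunit, measured 359, 353 and 244 CPM in controls and 357, 336 and 234 CPM in IFNγR1KO (log2 fold change -0.04 ± 0.19, adjusted p = 0.915, edgeR). Tbp, the TATA-binding protein that starts head to head with it across 136 bases, measured 85.8, 91.7 and 63.6 CPM against 119, 112 and 79.5 CPM, with a log2 fold change of 0.36 ± 0.18 (adjusted p = 0.209, edgeR). In both genes control replicate 3 and IFNγR1KO replicate 12 were the low libraries. Tbp shares 19.02% of its exonic bases with Pdcd2, all of whose exonic bases lie within Tbp on the other strand. Ppp2r1a, the scaffold subunit of protein phosphatase 2A, measured 212, 244 and 271 CPM against 188, 181 and 239 CPM (log2 fold change -0.26 ± 0.16, adjusted p = 0.310, edgeR). Among the other members, the 2 below 0 whose groups did not overlap, named after their values were seen, were the chromatin remodeller Chd1 and the BMP co-receptor Rgmb, at log2 fold changes of -0.34 ± 0.15 and -0.37 ± 0.17 (adjusted p of 0.164 and 0.179, edgeR).

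At the limits of membership, the members that passed in exactly 3 libraries were Gm10509 (7, 9, 10, 18, 18 and 8 counts in the order of replicates above) and Gm49691 (19, 10, 7, 6, 18 and 7). The nearest genes left out, which passed in 2 libraries, were Gm10226 (4, 4, 10, 4, 6 and 10 counts) and Wdr27 (4, 1, 4, 6, 10 and 10). Gm10509 had the highest fitted value of all members, a log2 fold change of 1.21 ± 0.40 that did not pass the test (adjusted p = 0.0631, edgeR). At the proximal edge the first member was the pseudogene Gm3222 (0.53 ± 0.37), and the nearest tested gene outside was the junction protein gene Afdn (-0.03 ± 0.18, adjusted p = 0.948). At the distal edge the nearest tested gene outside was AC098880.2, at 1.84, 1.49 and 1.93 CPM in controls and 4.69, 4.07 and 2.25 CPM in IFNγR1KO, a log2 fold change of 1.06 ± 0.33 with an adjusted p of 0.0489 (edgeR). The nearest tested gene beyond the distal edge was thus called higher, at a low level and close to the threshold. It was not among the genes followed singly with libraries left out.

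On either side the values were closer to those of all genes. The flanks were not chosen on their values and the window was, so this difference supports nothing. The 16 tested genes of the 5 Mb proximal to the window had a median log2 fold change of -0.07. Of them, 1 was called higher and 2 lower (6.25% and 12.5%, against 7.59% and 7.64% of all tested genes). The 118 genes of the 5 Mb distal to the window had a median of 0.09, with 11 called higher and 5 lower (9.32% and 4.24%). Over the 645 tested genes of chromosome 17 outside the window the median was 0.03.

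Zfp genes elsewhere also leaned above 0. Of the 305 tested outside the window, 209 had a log2 fold change above 0, and the median was 0.18. Calls were 30 higher and 6 lower (9.84% and 1.97%, against 7.59% and 7.64% of all tested genes). Among 15 other clusters of at least 5 tested Zfp genes each within 1 Mb of the next, 13 had a median above 0 and 3 had a median above that of the window. Those 3 were 2 clusters on chromosome 7, of 6 and 14 genes with medians of 0.66 and 0.46, and a cluster of 6 genes on chromosome 8 with a median of 0.43. The other cluster on chromosome 17, of 13 genes from chr17:32765496 on, had a median of 0.04 with 8 genes above 0. The lowest median was -0.21, in 6 genes on chromosome 9. By this description the window lay at the upper end of the clusters without standing outside their range. The window was chosen for high values in this contrast and the other clusters were not, so its rank supports nothing.

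**Figure D4:**
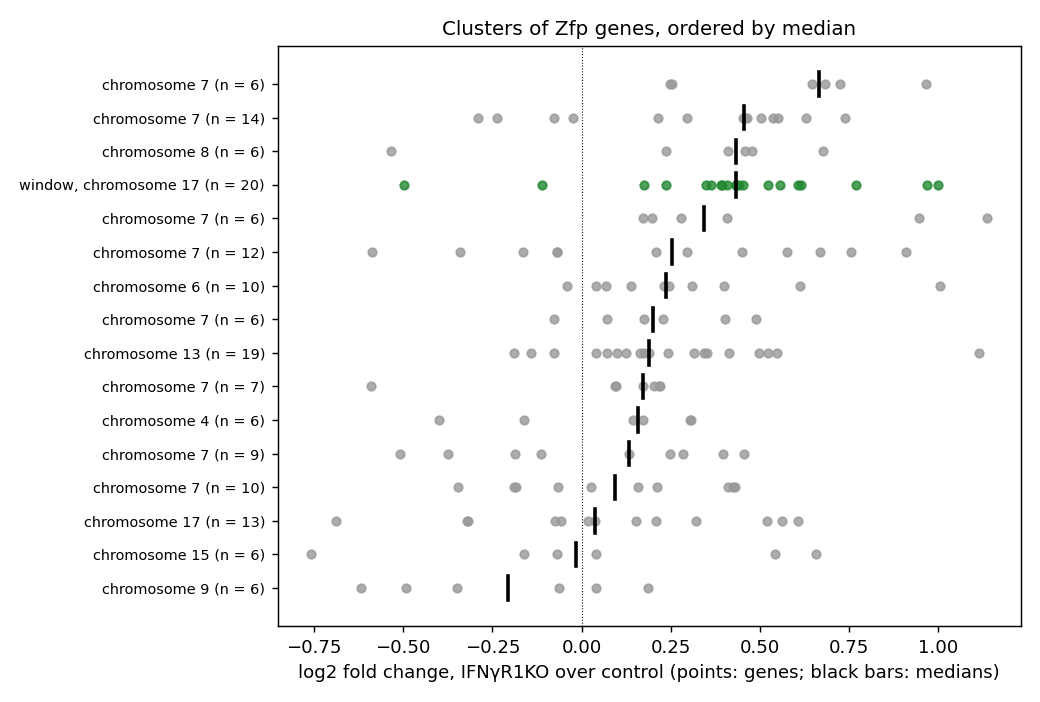
log2 fold change of IFNγR1KO over control (x axis) for each gene of the window's 20 Zfp members (green) and of 15 other clusters of Zfp genes (grey), 1 row per cluster with black bars for medians. The window's median of 0.43 is the fourth from the top, and only the window was chosen for high values in this contrast.

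Cofactors that KRAB zinc-finger proteins work with were followed as a separate list. The list also holds DNA methylation and chromatin genes that are not particular to KRAB proteins, so its count is not one for TRIM28 and SETDB1. Of 34 tested genes, none was called higher and 7 were called lower (7.59% and 7.64% over all tested genes), with a median log2 fold change of -0.10. Trim28, the common corepressor, measured 216, 257 and 313 CPM in controls and 201, 224 and 278 CPM in IFNγR1KO, and Setdb1 48.9, 40.7 and 45.3 CPM against 39.2, 39.4 and 47.5 CPM. Neither passed the test, with log2 fold changes of -0.16 ± 0.17 (adjusted p = 0.599) and -0.10 ± 0.14 (adjusted p = 0.719, edgeR). The genes that fell were of 3 kinds. The maintenance DNA methylation genes Uhrf1 (-1.42 ± 0.19, adjusted p = 0.0005, edgeR), Dnmt1 (-1.09 ± 0.22) and Hells (-0.996 ± 0.16) fell most on the log2 scale. The heterochromatin protein genes Cbx1 and Cbx3 fell by 0.51 ± 0.13 and 0.58 ± 0.14, and Suv39h1, an H3K9 methyltransferase gene, fell by 0.74 ± 0.14. Sumo2, which encodes the modifier attached to TRIM28, fell by 0.52 ± 0.14. For all 7 the adjusted p was at most 0.0275 in the edgeR test. Uhrf1 measured 219, 251 and 295 CPM in controls and 72.8, 90.5 and 122 CPM in IFNγR1KO, so the groups lay far apart. UHRF1 and DNMT1 act on newly replicated DNA.

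**Figure D5:**
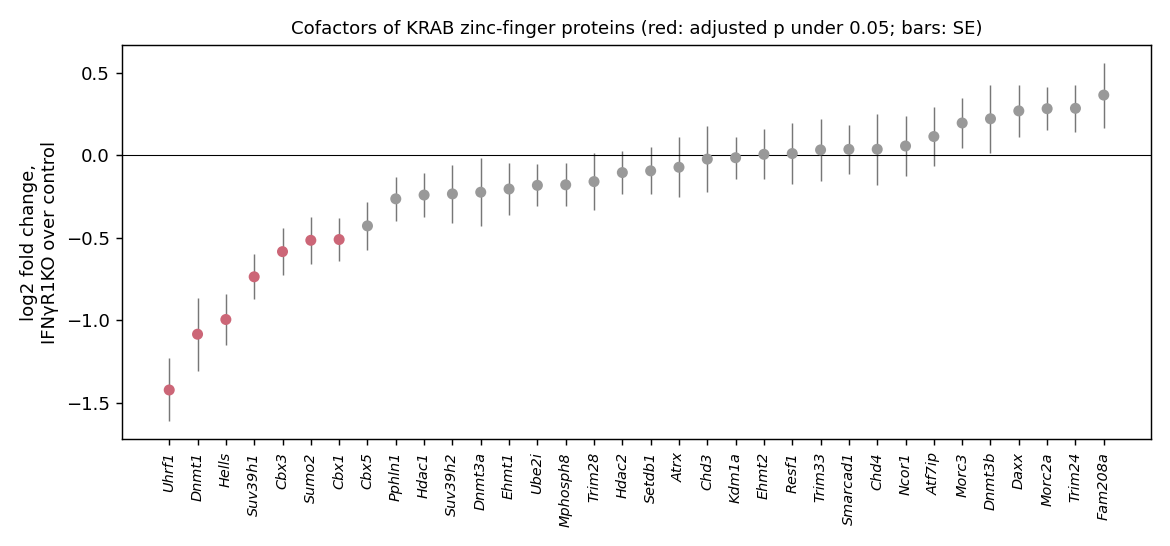
log2 fold change of IFNγR1KO over control (y axis, bars are SE) of the 34 tested genes listed as cofactors of KRAB zinc-finger proteins, general chromatin genes among them, ordered by value; red points have an adjusted p under 0.05. The 7 red points lie between -1.42 and -0.51, and Trim28 and Setdb1 are among the grey points near 0.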

How the data were processed

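Poly(A) RNA of 3 scrambled control and 3 IFNγR1KO cultures was sequenced in pairs. Per the labels and the study's methods, the authors aligned reads to GRCm38 with STAR 2.7.5a, counted them per gene with HTSeq 0.11.2 and tested them with DESeq2 1.34.0, and the deposited files hold whole-number counts per gene, not normalized. The annotation release and strand setting are not given in the sources used here. The 5 summary rows that name no gene were left out, of which reads in no feature were 46.9% to 47.7% and reads aligned to several places 3.76% to 4.61% of the table. Of 55335 identifiers, 55154 were in GENCODE M21, which gave positions. Depth differed between the groups, and 1 count was worth 0.0965 to 0.142 CPM.

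Genes with 10 or more counts in at least 3 libraries entered edgeR 4.0.16 (R 4.3.3; TMM factors, quasi-likelihood test, Benjamini-Hochberg adjustment over 13733 genes). Standard errors are the log2 fold change divided by the root of F. Scripts were tested on simulated data. The window, its members and all lists were chosen with earlier results of these data known. Named are every Zfp member, other members with an adjusted p under 0.05 or among the 5 most abundant, Ifngr1, cofactors with an adjusted p under 0.05 plus Trim28 and Setdb1, and the tested genes nearest each edge. Promoters came from RefSeq (GRCm38.p6). No protein table was used, so the planned count of fingers in RefSeq proteins was made on translated GENCODE coding sequences, with patterns for C2H2 fingers and the KRAB A box, and pairs were aligned with Biopython 1.88. Alternatives were DESeq2 1.42.0, RLE and upper-quartile factors, other filters, thinning, leaving out each library, other memberships, and correction for GC content.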

Additional observations from a re-analysis of the deposited data

How the results depend on the processing

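The median log2 fold change of the Zfp members stayed above 0 under every alternative, at 0.29 to 0.67 when single libraries were left out. The median of the other members was -0.020 to 0.42 in those fits, turning to -0.020 without control replicate 3, and was -0.043 without the members that share exonic bases with another gene. Zfp members called higher numbered 1 to 9 with single libraries left out (1 without control replicate 2, IFNγR1KO replicate 10 or replicate 11, and 9 without replicate 12), 4 without the filter on low counts and 0 with a log2 fold change above 1 also required. Calls over all tested genes moved too, from 1043 higher in the main fit to 535 without control replicate 2. They were 560, 563 and 1360 without IFNγR1KO replicates 10, 11 and 12, of 13733 tested, and 1197 of 23337 without the filter. Zfp genes called lower numbered 1 without the filter, and that gene was Zfp820. Other members called higher numbered 1 to 9 with single libraries left out (2 without control replicate 2 or IFNγR1KO replicate 11, and 1 without replicate 10), 0 with a log2 fold change above 1 also required and 1 without members sharing exonic bases. Among the 29 members run singly (the 20 Zfp members and 9 others), the sign turned in Zfp948 (-0.28 to 0.10 with single libraries left out, 0.09 without control replicate 1 and 0.10 without IFNγR1KO replicate 12), Zfp944 (-0.062 to 0.41, with -0.0026 without control replicate 3 and -0.062 without IFNγR1KO replicate 10) and Psmb1 (-0.20 to 0.12, with 0.05 without control replicate 1, 0.04 without control replicate 2, 0.12 without IFNγR1KO replicate 12). The cause of these shifts was not tested. DESeq2, RLE factors and thinning to the smallest library called the same 2 Zfp members as edgeR, and upper-quartile factors added Zfp942. No paired analysis was possible because the groups share no replicate number.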

Other observations

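Limits of these data bear on every value above. With 3 cultures a group and gene levels of mostly under 25 CPM, the standard error of a Zfp member's log2 fold change was 0.20 to 0.34. Zfp758, near the median at 0.44 ± 0.21, had an adjusted p of 0.181, and Zfp677 at 0.77 ± 0.29 one of 0.0936 (edgeR), so changes of the size of the median were not called. Control and IFNγR1KO libraries also differed in depth. Reads that fit several close paralogs may not have been counted. Counts cannot tell transcription from transcript stability, and a member's protein level was not measured.

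Outside the window, the Zfp genes with an adjusted p under 0.05 and the largest values, picked after they were seen, were Zfp57, a regulator of imprinted loci that is also on chromosome 17 (log2 fold change 1.39 ± 0.28, adjusted p = 0.00539), and Zfp9 (1.33 ± 0.17, adjusted p = 0.000357), and at the other end Zfp810 (-1.48 ± 0.29, adjusted p = 0.00483), all by edgeR with Benjamini-Hochberg adjustment.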
